A study of Mus musculus with 4 samples.

Results

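Narrow genomic sites that a p53 antibody enriched to the same height in undamaged and in DNA-damaged mouse embryonic stem cells are described here, from 4 promoter microarrays. Of 2709 regions enriched in either condition, 2131 were at most 2000 bp wide, and 396 of these were enriched at least 4-fold in both conditions with a difference of less than 1.41-fold between them. They were chosen by their log ratios in both arrays, and these values are therefore given as a description without a test. They made up 14.6% of all regions and 18.6% of the narrow ones. A region was a run of neighbouring array probes, read in windows of 3 probes spanning at most 1000 bp. A window was enriched when its mean log2 ratio of immunoprecipitated (IP) to input DNA, after subtraction of the array median, was at least 2 and at least 2 of its 3 probes reached 2. Enriched windows of either array within 500 bp of each other were merged, and each region is represented by the enriched window with the highest mean of both arrays.

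R1E cells, a mouse embryonic stem cell line, were kept for 8 h with 1000 units/ml leukaemia inhibitory factor, which holds such cells undifferentiated, either untreated or with 0.5 µM adriamycin. Adriamycin (doxorubicin) poisons topoisomerase II and breaks DNA. Chromatin of fixed cells was precipitated with an antibody to p53, and amplified IP and input DNA were labelled with Cy5 and Cy3. There are 2 array designs with different probes, and either condition has 1 array of each, so 186 of the regions were read on design 1 and 210 on design 2, each from 1 untreated and 1 adriamycin array. No test is possible with 1 array per condition, and condition cannot be told apart from slide. The SD given with a window is over its 3 probes, which are not replicates. A precipitation without the p53 antibody was not analysed here.

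p53 is a transcription factor that binds a response element made of a pair of decamer sequences, usually in promoters or first introns. In undamaged cells its level is held low by the ubiquitin ligase Mdm2, and DNA damage signalling releases it from that control, after which it drives genes of cell cycle arrest, DNA repair and apoptosis. Embryonic stem cells hold relatively much p53 before damage, in part outside the nucleus. The arrays were made to map p53 binding in both states of the cells, and the regions described here are those of like height in both maps. Positions are those of the probes as the deposited files give them. Their genome build is not stated in the files or labels used here, and genes and sequences at these positions were not analysed here.

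The 396 regions were moderately enriched. Their log2 ratios ran from 2.00 to 4.93 in the untreated arrays, with a median of 2.61 (6.10-fold), and from 2.00 to 5.37 in the adriamycin arrays, with a median of 2.51 (5.70-fold). The mean of both arrays lay between 2 and 2.5 in 177 regions, between 2.5 and 3 in 121, between 3 and 4 in 70 and at 4 or more in 28. Most regions therefore lay in the lower part of the range, close to the limit that admitted them. Both designs gave like values, with medians of 2.66 and 2.51 (untreated and adriamycin) on design 1 and of 2.58 and 2.51 on design 2. Widths ran from 261 to 2000 bp with a median of 1082.5 bp, and a region held 3 to 13 probes with a median of 6.

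**Figure D1:**
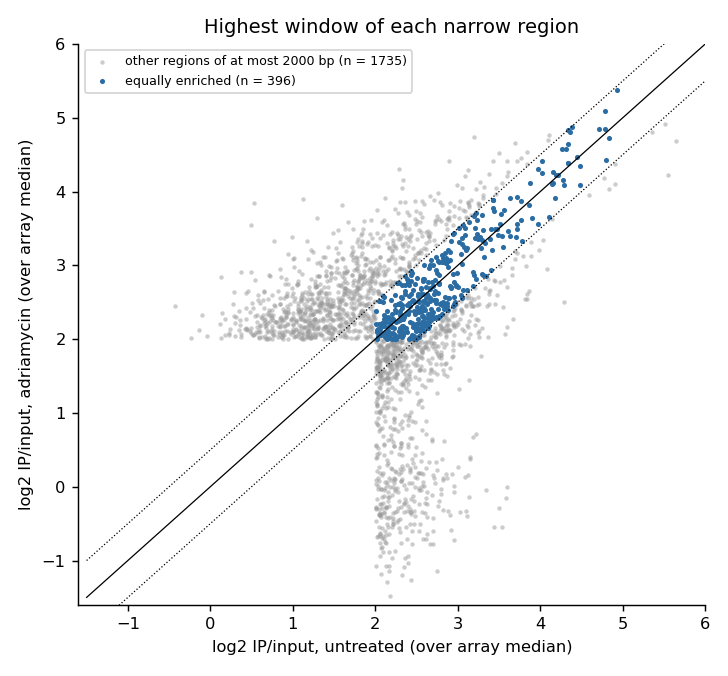
Log2 ratio of IP to input, less the array median, in the untreated (x axis) and adriamycin (y axis) array, for the highest window of each region of at most 2000 bp. The 396 equally enriched regions (blue) lie within 0.5 of the diagonal (dotted lines) and at 2 or more on both axes; the other 1735 narrow regions (grey) continue on all sides of them without a gap.

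The difference, adriamycin minus untreated, had a median of -0.04 (interquartile range over regions -0.27 to 0.17). It was above 0 in 179 regions and below 0 in 217, and it was under 0.1 in size in 95 (24.0%). Among the 752 narrow regions at 2 or more in both arrays, these 396 made up 52.7%, while 64 (8.51%) were higher with adriamycin by 1 or more and 19 (2.53%) lower by 1 or more. The remaining regions lay between the limits, 153 of them higher by 0.5 to 1 and 120 lower by 0.5 to 1. The differences of all 752 ran from -1.79 to 2.03, with regions close to either side of each limit. Outside enriched regions, the difference of a 3-probe window had an SD of 0.61 on design 1 and 0.60 on design 2, which is wider than the limit of 0.5, and 61.7% of those windows differed by less than 0.5. Of all windows at 2 or more in both arrays, in regions of any width, 69% did. Of the 566 regions over 2000 bp that reached 2 in both arrays, 50.9% (288) differed by less than 0.5. A difference that admitted a region was thus smaller than the SD of 1 window outside regions, and equal enrichment was about as frequent among wide regions as among narrow ones. The choice of regions also depended on the scaling. Of the 396, 51.0% still differed by less than 0.5 when both arrays were scaled to equal spread, 57.6% when both were set against a common input and 32.8% after another background correction (normexp), and the median difference was then 0.49, -0.06 and 0.44.

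Regions beside the limit show how thin it is. Just inside 0.5 were chr9:64030810-64031667, with 2.43 ± 1.55 untreated and 2.93 ± 1.45 with adriamycin, chr7:24593246-24594455 (difference 0.496) and chr2:25479173-25479779 (0.493). Just outside were chr7:4354795-4355645, with 3.04 ± 1.65 and 3.54 ± 1.53, chr7:18237909-18238614 (0.502) and chr3:107229002-107230464 (0.503). On the other side, chr11:102761206-102762398 went in with 2.53 ± 0.32 and 2.03 ± 0.27, followed by chr14:118273048-118274868 (-0.497) and chr3:126589333-126590512 (-0.495). Just left out were chr2:127346897-127348375 with 2.55 ± 0.17 and 2.05 ± 0.23, chr1:94437040-94438098 (-0.506) and chr12:102528967-102530947 (-0.509). Regions on both sides of the limits varied in level and in the spread of their probes. The 3 regions with the lowest mean, 2 on chromosome 18 and 1 on chromosome 8, had means of 2.02, 2.04 and 2.06.

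The 10 regions with the highest mean of both arrays are the clearest examples, with log2 ratios of 4.33 to 4.93 untreated and 4.42 to 5.37 with adriamycin. None of their windows held a saturated spot. At chr14:33207541-33208462 the 6 probes of the region, in order of position, had 0.29, 1.32, 2.72, 4.40, 5.42 and 4.97 in the untreated array. With adriamycin they had 0.93, 2.48, 3.50, 4.94, 5.47 and 5.71. The signal thus climbed over about the same probes in both conditions and ended where the tiled probes end, so its far side was not measured. At chr15:85687201-85688027 the probes climbed from 1.65 to 5.21 and came down to 2.49 in the untreated array, and went from 1.71 through 5.69 to 3.28 with adriamycin. The highest probe was the same one in both arrays, and the 8 probes outside the region within 2500 bp had medians of -0.36 and -0.08.

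Several of these 10 had a sharp single summit among the probes measured. Only 4 of the 10 had a further probe within 500 bp on both sides, and 3 ended at a tile end. At chr8:93715183-93716137 the last 5 of the 6 probes had 2.74, 4.32, 5.91, 4.15 and 2.20 untreated, and 3.04, 4.06, 5.49, 3.72 and 2.35 with adriamycin. At chr1:132966469-132967631 all 6 had 1.44, 3.16, 5.73, 4.12, 2.20 and 0.16, and 1.24, 3.72, 6.03, 4.17, 2.72 and 0.99. At chr7:45334138-45335031 the highest probe reached 5.99 and 6.58, while the probe next to it in the direction of higher positions had 2.26 and 2.66. Among the probes measured, these 3 regions had 1 summit, at the same probe without and with damage. The difference of each 3-probe window was -0.37 ± 0.09, 0.31 ± 0.26 and 0.48 ± 0.10 (SD of the 3 probe differences), in that order. In 8 of the 10 the same probe was highest in both arrays.

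The region chr5:111053888-111054734 was highest at the last probe of its tile in both arrays, so no summit was measured there. In chr6:140582373-140584027, chr11:77981981-77983198 and chr7:24593246-24594455 the same probe was highest in both arrays. The differences of these regions, in the order named, were 0.06 ± 0.14, 0.13 ± 0.40, -0.11 ± 0.48 and 0.50 ± 0.34. The region chr2:115754209-115755576 had another shape. All 8 of its probes lay between 3.65 and 5.26 untreated and between 3.33 and 5.18 with adriamycin. Its 4 nearest probes outside, which lie across a gap in probe coverage, still had 3.02 to 4.87 and 4.04 to 4.87. The probes therefore do not show where this enrichment ends, and its width is a lower limit.

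**Figure D2:**
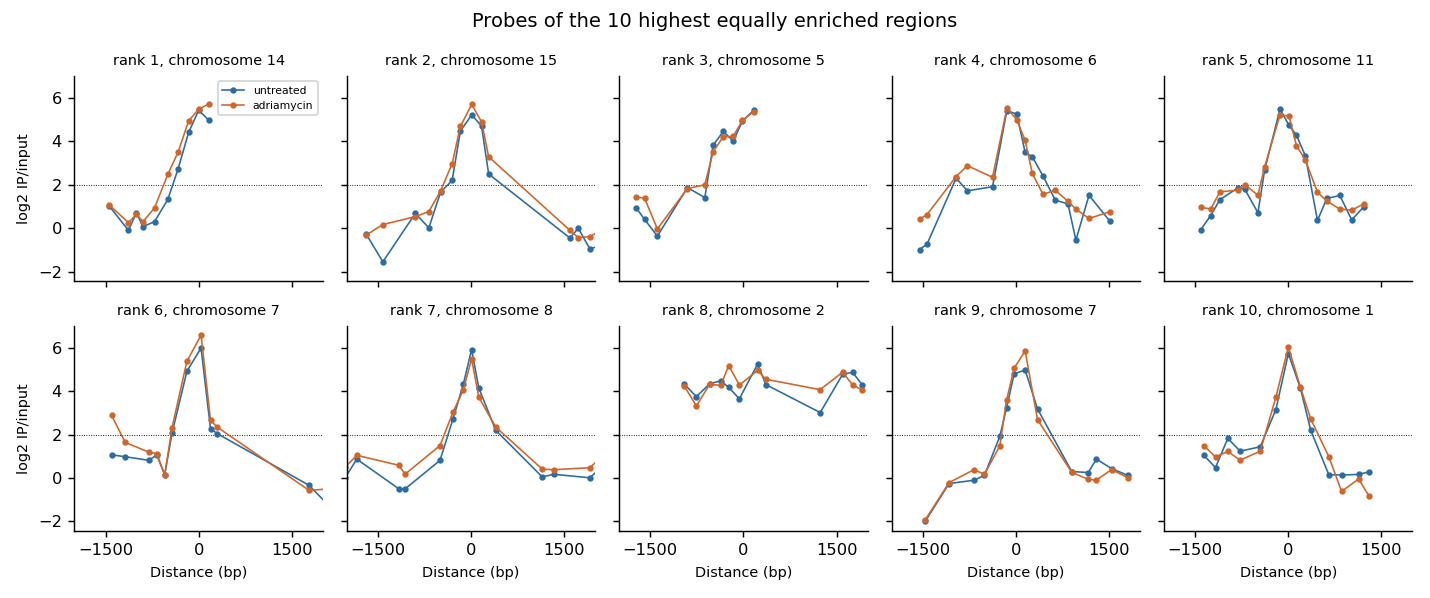
Log2 ratio of IP to input, less the array median (y axis) of each probe within 2000 bp of the centre of the highest window (x axis, distance in bp), for the 10 equally enriched regions with the highest mean of both arrays, untreated in blue and adriamycin in orange, with the limit of 2 dotted. In 9 panels both lines climb over about the same probes, and on chromosome 2 (rank 8) both stay above 3 throughout. At ranks 1 and 3 the tiled probes end at or next to the highest probe, so the far side was not measured.

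Over all 396 regions, 311 had a further probe within 500 bp on both sides, 42 ended at the end of a tile and 43 at a gap in coverage of over 500 bp inside a tile. In 21 the next probe on either side still had a mean of 2 or more. For 303 regions the probes thus bounded the enrichment on both sides, and for the others the width is a lower limit.

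Higher and lower regions differed in shape. Of the 98 regions with a mean of 3 or more, 76 (77.6%) had the same highest probe in both arrays, against 121 (40.6%) of the 298 regions below 3. Over all 396 it was 197 (49.7%), against 60.7% of narrow regions higher and 31.7% of narrow regions lower with adriamycin. In the equally enriched wide regions it was 25.3%. The median number of probes in a region was 6, 4, 3 and 18.5 in that order, so these shares are not directly comparable. The SD over the 3 probes of the window was also larger in the higher regions, with medians of 0.95 untreated and 0.81 with adriamycin against 0.51 and 0.37. The higher regions were thus more pointed and the lower ones flatter. Median widths were alike, 1079.5 and 1086 bp. Probes between 1000 and 2000 bp from the centre had medians over regions of 0.34 and 0.45 (untreated and adriamycin) around the higher regions and of 0.63 and 0.58 around the lower ones. The lower regions thus stood on higher shoulders although their windows were lower by about 1 on the log2 scale. This split by height was made after the values were seen.

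Averaged around the centre of the window, both conditions gave nearly the same curve. In bins of 250 bp, the mean over probes was 2.95 untreated and 2.90 with adriamycin at the centre. It was 1.39 and 1.58 at 500 bp on the side of higher positions, 0.94 and 0.98 at 1000 bp and 0.41 and 0.35 at 2000 bp. The centre was fixed by the rule, but the probes from 500 bp outward mostly were not part of the window. Around the 506 narrow regions that were higher with adriamycin by 1 or more (23.7% of narrow regions), the untreated mean at 1000 bp was -0.02 and the adriamycin mean 0.34. Region by region, the probes between 1000 and 2000 bp had medians of 0.56 untreated and 0.55 with adriamycin for the equally enriched regions, and of -0.05 and 0.16 for the higher ones. The ratios of IP to input around the equally enriched regions were therefore higher in both conditions than around the regions that were higher after damage. The latter were also narrower, with a median width of 652.5 bp. Around the equally enriched wide regions the medians between 1000 and 2000 bp were 2.14 untreated and 1.94 with adriamycin. Raised shoulders were thus not particular to the narrow regions.

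**Figure D3:**
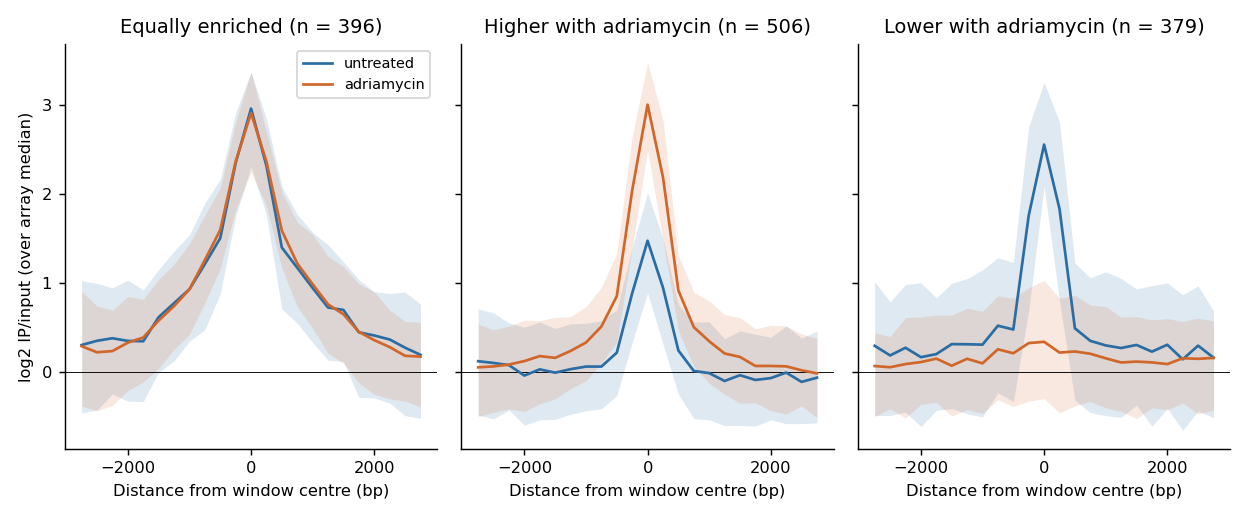
Mean log2 ratio of IP to input, less the array median (lines; shading, interquartile range over probes) in bins of 250 bp by distance from the centre of the highest window, for the 396 equally enriched regions, the 506 narrow regions higher and the 379 narrow regions lower with adriamycin by 1 or more. In the equally enriched regions both lines meet at the centre (2.95 untreated and 2.90 with adriamycin) and stay together through shoulders that reach beyond 1000 bp. The higher and lower groups differ at the centre by their definition and have lower shoulders. Equally enriched regions over 2000 bp, not shown, had higher shoulders.

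Inside the regions, the probes that are not part of the window also had like values in both arrays. In the 364 regions with such probes their mean had a median of 1.80 untreated and 1.81 with adriamycin, and its difference had an interquartile range of -0.30 to 0.44. It was under 0.5 in 258 (70.9%), at 1 or more in 18 and at -1 or less in 1. This share was near that of all windows at 2 or more in both arrays, of which 69% differed by less than 0.5. For such probes outside the window it was 84.4% in the equally enriched wide regions. In the narrow regions higher and lower with adriamycin it was 18.1% and 34.9%. In the 235 regions with at least 6 probes, untreated and adriamycin values correlated across the probes of a region with a median r of 0.72 (interquartile range 0.46 to 0.90). It was 0.89 in 75 narrow regions higher with adriamycin and 0.73 in the equally enriched wide regions, so r describes a like shape and not a like height. Both arrays share the probes, and neighbouring probes share DNA fragments.

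An equal mean does not require equal probes. In 107 regions (27.0%) each of the 3 probes differed by less than 0.5 between arrays, and in 66 (16.7%) at least 1 probe differed by 1 or more. The latter was so in 68.9% of all narrow regions, but this contrast follows from the selection. The rule limits the mean difference of these 3 probes, while a mean difference of 1 or more requires such a probe. In 10 regions 1 probe was higher by 1 or more and another lower by 1 or more. The most uneven was chrX:10454354-10455148, where probe differences ran from -2.91 to 1.90 behind means of 2.49 untreated and 2.10 with adriamycin. At chr6:48524411-48525345 they ran from -1.39 to 1.66, and at chr8:24720359-24720874 from -0.86 to 1.69. All 6 values of the window reached 2 in 169 regions (42.7%). This count and that of 107 are given without the same counts over other regions, so they only describe these regions.

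Most log ratios combined a bright IP signal with an input signal that was itself above its array median. The input was above the median in both arrays in 322 regions (81.3%). In log2 units over the median of its channel, the IP signal had a median of 3.72 untreated and 3.64 with adriamycin (13.2-fold and 12.4-fold), and the input 0.94 and 1.05 (1.92-fold and 2.07-fold). Of the 396 regions, 333 (84.1%) had an untreated input above the array median, against 51.9% of all windows. This was as frequent in other enriched regions, 82.8% of the narrow regions higher with adriamycin, 81.1% of the 850 narrow regions that were neither equally enriched nor higher or lower by 1 or more and 90.3% of the equally enriched wide regions. Only 1 region held a spot not well above background. The 379 narrow regions lower with adriamycin (17.8% of narrow regions) were the opposite, with a median untreated input of -3.11 and a dim spot in 166 (43.8%).

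The IP signal alone differed by less than 0.5 in 227 of the equally enriched regions (57.3%), compared with 32.8% of all narrow regions. The rule limits the change of the ratio, of which the IP signal is a part. All narrow regions include those whose ratio changed by 1 or more, so this contrast follows in part from the selection. In 47 regions (11.9%) the IP signal was higher with adriamycin by 1 or more, and in 0 lower by as much. With a ratio that differs by less than 0.5, the rule requires that the input of these 47 was higher too. It was higher by 0.59 to 2.18, with a median of 1.22, and their untreated input had a median of -0.35. The part of each channel in these ratios was not tested.

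**Figure D4:**
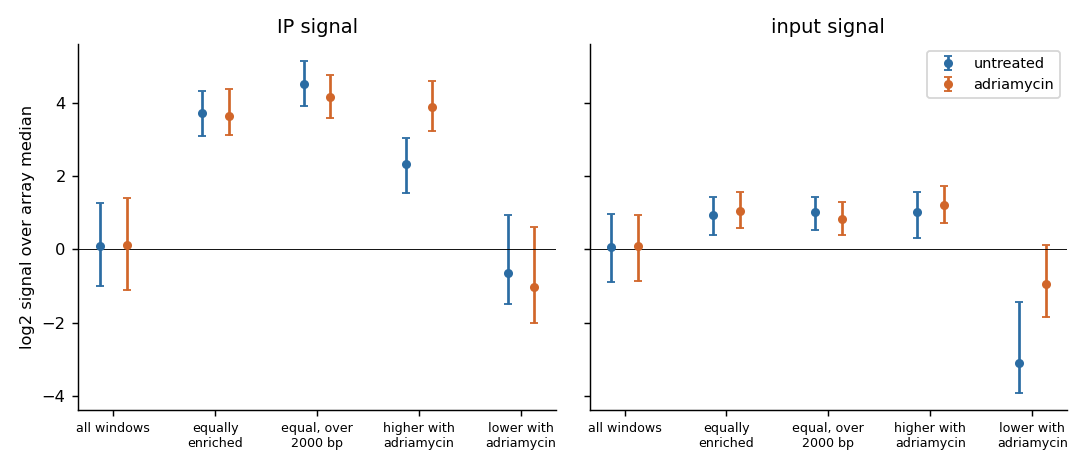
IP signal (left) and input signal (right) of the highest windows, each as log2 over its own array median, for untreated (blue) and adriamycin (orange) arrays; points are medians over regions or windows and bars interquartile ranges. Equally enriched regions have an IP of about 3.7 and an input of about 1 in both conditions; regions lower with adriamycin have a dim untreated input (median -3.11).

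Position on the array tiles was not part of the rule, and the regions were not spread evenly over it. The probes kept formed 8386 (design 1) and 8160 (design 2) tiles, which are runs of probes at most 2000 bp apart by their starts. In tiles of 6500 to 8500 bp lay 298 of the 396 regions. Of these, 70 (23.5%) had their window centre at 0.2 to 0.3 of the tile length and 58 (19.5%) at 0.7 to 0.8, while 10.7% and 10.8% of all 270303 windows lay there. Both bins together held 43.0% of the regions, 45.1% on design 1 and 40.9% on design 2, against 21.6% of windows. The narrow regions higher with adriamycin had 27.4% of 343 there, and the narrow regions lower with adriamycin 27.7% of 274. All narrow regions outside the rule together had 32.5% of 1217, which includes the higher and lower regions. At 0.2 to 0.4 and 0.6 to 0.8 of the tile length, a wider range, lay 63.8% of the equally enriched regions (190 of 298). It held 59% (354 of 600) of the narrow regions that were in none of these groups. It held 46.6% of the higher regions, 50.4% of the lower regions and 42.6% of windows. The remaining narrow regions thus shared much of the pattern. In base pairs, 52.0% of the equally enriched regions were centred 1500 to 2500 bp from the nearer tile end, against 28.3% of windows, 35.9% of the higher regions and 41.1% of all narrow regions outside the rule. The files do not mark gene starts or strands, so these are distances from tile ends and not from genes.

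The concentration lay with the lower regions. Of those with a mean below 3, 111 of 232 (47.8%) were in the bins of 0.2 to 0.3 and 0.7 to 0.8. Of those at 3 or more, 17 of 66 (25.8%) were in these bins. Wide regions that were equally enriched resembled the lower ones, with 93 of 226 (41.2%) there. Among regions higher with adriamycin, those with an adriamycin ratio below 3 had 25.9% there and those at 3 or more 31.0%. The bins were chosen after the values were seen.

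**Figure D5:**
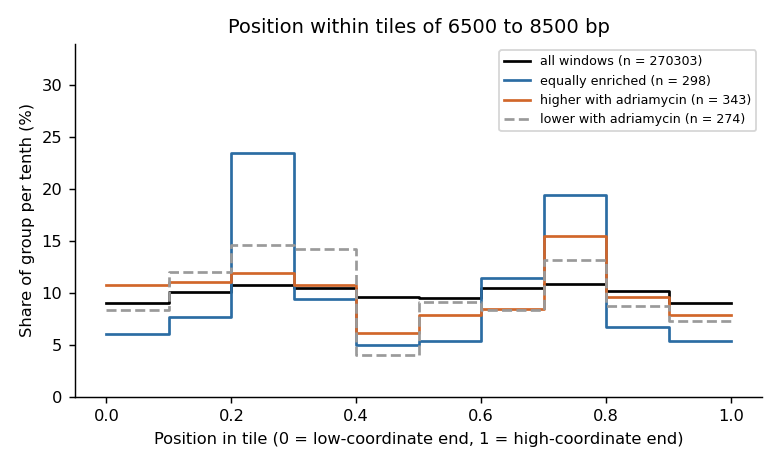
Position of the window centre along tiles of 6500 to 8500 bp (x axis, 0 and 1 are the ends at lower and higher coordinates) as the share of each group in bins of 0.1 (y axis), for all windows, the 298 equally enriched regions and the 343 and 274 narrow regions higher and lower with adriamycin by 1 or more. The equally enriched regions have maxima at 0.2 to 0.3 (23.5%) and 0.7 to 0.8 (19.5%), where all windows have 10.7% and 10.8%.

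The probes of the equally enriched regions were short. The array's probes are up to 60 bases long, and the mean length in the windows of these regions had a median of 49.3 bases, against 55 over all windows. It was at most 48 bases in 173 regions (43.7%), in 14.6% of all windows, in 25.9% of the regions higher and in 10.6% of the regions lower with adriamycin. Other enriched regions had shares close to that of the equally enriched ones, 40% (340) of the 850 narrow regions that were in none of these groups, 47.9% of the equally enriched wide regions and 50.3% of the other wide regions. Short probes were thus not particular to equal enrichment. Probe length and tile position went together. As a whole, windows with such short probes had 36.7% in the tile bins of 0.2 to 0.3 and 0.7 to 0.8. The equally enriched regions with such probes had 55.1% there (75 of 136). With longer probes the shares were 19.1% of windows and 32.7% of the regions (53 of 162). The regions thus lay at these positions more often than windows of either probe length class. The part of probe length in the log ratios was not tested.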

How the data were processed

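DNA from p53 antibody precipitation and from input was measured on 4 Agilent promoter arrays, 1 per condition and design. Per the file headers, the scans were read by Agilent Feature Extraction 10.1.1.1, which made the deposited intensities by background subtraction, detrending and a linear dye factor, without lowess. The deposited log10 ratio of a spot is, per the file headers, that of its processed IP and input intensities. It matched these closely in 98.4% to 99.6% of the probes kept, by array. The value table deposited by the authors is on a log2 scale. All its filled values equalled the log2 ratio of background-subtracted spot medians within 1e-06, and it is not centred (medians -0.94, -1.00, -0.93 and -0.45 for untreated and adriamycin of design 1, then design 2).

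From the processed intensities, log2 ratios were centred on the array median, with no loess. Controls, unplaced probes and spots with an outlier mark in 1 or both arrays were dropped, leaving 236817 and 236686 probes and 202535 and 203579 windows. Probes at most 2000 bp apart by their starts formed a tile. IP signals were well above background in 94.3% to 98.2% of probes. Precision is limited by how few arrays there are. Ratios correlated across windows with r = 0.71 and 0.73. The code of the rule was run on simulated sites of known ratios with independent noise, which does not show how the rule performs on these data. Named regions are the 10 highest by the mean of both arrays without saturated spots, the 3 nearest to each limit on either side and the 3 lowest, and the uneven ones were chosen after their values were seen. The members, lists and bins were chosen with earlier results of these data known. Motif and gene list results planned for these regions were not run, for want of sequence and gene names in the sources used here, and normexp (limma 3.58.1, R 4.3.3) ran on spot medians because the files hold no spot means. Python 3.11.15, numpy 2.4.6 and pandas 2.3.3 were used.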

Additional observations from a re-analysis of the deposited data

How the results depend on the processing

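Both the number of regions and which ones qualified depended on the processing. With other values, the count was 451 with the deposited table (324 of them sharing a probe with one of the 396), 429 centred on the mode (372), 337 with a common input (197), 371 with both arrays scaled to equal spread (167), 303 with loess (159), 124 with normexp (25), and 273 with normexp without extreme local backgrounds (58), which was added after seeing the data. With only probes well above background it was 383. Changing the rule gave 221 regions at a difference limit of 0.25, 669 at 1, 677 at a threshold of 1.5, 269 at 2.5, 172 at a width of at most 1000 bp, 246 with windows of 5 probes, and 423 and 378 with merging at 250 and 1000 bp.

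In the windows of the 396 regions, the share that differed by less than 0.5 was 97.5% centred on the mode, 99.0% of 395 with probes well above background, 89.4% with the deposited table, 80.1% with loess, 57.6% with a common input, 51.0% with equal spread, 32.8% with normexp and 79.5% with normexp without extreme local backgrounds. The median difference, -0.04 as reported, was 0.49 with equal spread, 0.44 with normexp, 0.16 with normexp without extreme local backgrounds and -0.27 with loess, and moved by less than 0.1 in the other settings. Equal spread raises it by construction, as it scales by the median absolute log ratio. This was smaller in the adriamycin arrays (0.51 and 0.47 against 0.59 and 0.61). For the rest the cause was not tested. No paired analysis was possible because the design has no replicates.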

Other observations

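Of the 396 equally enriched regions, 317 (80.1%) were the only enriched region of their tile, as were 87.9% of the narrow regions higher and 80.7% of those lower with adriamycin by 1 or more. Of the 396, 25 shared it with a region over 2000 bp, 6 with a narrow region higher and 13 with a narrow region lower with adriamycin by 1 or more. The regions lay in 385 tiles, and 8 tiles held more than 1. Counts of shared tiles were not made for other enriched regions, so these only describe the 396.

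On chromosome 18, 20 of the 64 narrow regions were equally enriched (31.2%), the highest share of any chromosome. Chromosome 12 followed with 29.1% (23 of 79). The lowest shares among chromosomes with any were 6.82% on chromosome 19 (6 of 88) and 6.78% on the X chromosome (8 of 118). One tile of 26508 bp on chromosome 18 held 5 of the regions, with log2 ratios of 2.52 to 3.64 untreated and 2.28 to 3.40 with adriamycin. The tile before it held 2 more, with 2.19 to 2.61 and 2.06 to 2.29. The region chr18:37892280-37892600 lay close by in another tile. Part of the share of chromosome 18 thus came from a single stretch. Neighbouring regions of 1 tile can share DNA fragments, so they are not independent sites.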
